A study of Mus musculus with 9 samples.

Results

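Collagen genes encode the chains of the collagens, the most abundant structural proteins of the extracellular matrix. The 44 protein-coding mouse genes whose GENCODE M21 symbol has the form Col, number, a, number were taken from the 35071 genes with a deposited transcript. They were sorted into 11 fibrillar, 8 basement membrane, 9 FACIT (fibril-associated) and 16 other collagens. The rule itself uses symbols and no measured value, though it was set with earlier results of these data known. RNA had been sequenced from 9 samples of subcutaneous fat of C57BL/6 mice at 24 weeks of age, in a study of an endothelial AGO1 knockout and wild-type littermates. There were 3 samples labelled WT, 3 labelled Hete KO and 3 labelled Homo KO. AGO1 is an Argonaute protein that binds microRNAs. No source used here names the driver of the endothelial knockout, or the sex and litter of the animals. The study's stated purpose was to find molecular changes beneath a metabolic phenotype of the knockout mice.

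Each collagen is a triple helix of 3 chains. Chains are hydroxylated and folded in the endoplasmic reticulum and secreted, and fibrillar procollagens are then trimmed at their ends and cross-linked into fibrils. Collagens I, III and V form the fibrils of the stroma, collagen IV forms the sheet of the basement membrane around adipocytes and capillaries, and FACITs sit on the fibril surface. Collagen VI forms beaded filaments that are abundant in fat. Fibroblasts and adipocyte progenitors make most of the fibrillar chains, while endothelial cells, mural cells and adipocytes contribute basement membrane chains. The whole tissue was sequenced, so fewer cells of a type and less RNA per cell cannot be told apart in any value below.

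The microRNAs of the miR-29 family are known for binding collagen mRNAs, and they are shown because Argonaute proteins act through such microRNAs. The mature sequences from RefSeq (GRCm38.p6) share 1 seed, bases 2 to 8, which is given in capitals.
miR-29a-3p: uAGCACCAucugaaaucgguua
miR-29b-3p: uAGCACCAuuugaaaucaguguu
miR-29c-3p: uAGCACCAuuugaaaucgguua
The 7 bases complementary to the seed were searched on the transcript strand of the 3′ UTR of 1 protein-coding GENCODE M21 transcript per gene. This was the transcript with the most counts among those with an annotated stop codon and a 3′ UTR of at least 7 bases. For Col18a1 and Col11a2 another protein-coding transcript had more counts and was not searched. Examples from 5 chains of fat are given with the seed match in capitals.
Col1a1: gtgggaaggaatttcTGGTGCTatagaagc
Col3a1: ttcaaaatgtctcaaTGGTGCTataataaa
Col4a1: gccaccgtcacaacaTGGTGCTactccccc
Col5a1: gttgctgaatgtttgTGGTGCTaatctctg
Col6a3: cgtgacctgtcaataTGGTGCTaaatgtgt
Among the 39 collagen genes that passed the filter on low counts, 22 (56.4%) held at least 1 match, against 2261 of 16021 other tested protein-coding genes (14.1%). The median length of the UTRs was 1009 bases in the collagens and 1048 bases in the others. Matches were found in 8 of 10 fibrillar, 6 of 7 basement membrane, 2 of 7 FACIT and 6 of 15 other collagens. Col4a3, Col5a1 and Col26a1 held 4 matches each, Col4a5 and Col5a3 held 3, and Col4a2, Col4a4, Col7a1, Col11a1 and Col22a1 held 2. In the UTR searched 17 of the tested collagens held 0, among them Col1a2, Col6a1, Col12a1, Col14a1 and Col18a1. A match is a run of letters and is not evidence of binding in these animals.

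The libraries held 20843427 to 28252001 estimated counts. Skeletal muscle transcripts were abundant in WT 1, WT 2 and Hete KO 2, where 10 muscle markers summed to 9613, 8581 and 28243 CPM (normalized counts scaled to library size), against 28.4 to 1201 CPM in the other 6 libraries. Liver markers summed to 922 and 910 CPM in WT 2 and WT 3 and to between 61.0 and 231 CPM in the other 7. The adipocyte markers summed to between 10127 and 14869 CPM in the 9 libraries and the 9 endothelial markers to between 703 and 1057 CPM, so the labelled tissue and the targeted cell type were both measured. Ago1 itself had 69.9, 63.8 and 63.4 CPM (WT), 51.2, 59.7 and 60.1 (Hete KO) and 62.2, 58.6 and 25.8 (Homo KO). All 6 KO libraries lay below the WT libraries, but the log2 fold change of -0.43 in Homo KO against WT did not pass the test (edgeR adjusted p = 0.441), and the level in Homo KO 1 was close to that in WT.

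Levels of different genes were compared in TPM, which is per length, summed over protein-coding transcripts. In WT, 13 chains made up 97.7% of all collagen TPM. Col3a1, the chain of collagen III, was highest at 717 ± 155 TPM (SD, n = 3), followed by the basement membrane chains Col4a1 at 580 ± 38.6 and Col4a2 at 427 ± 17.8 TPM. Col1a1 and Col15a1 followed with 307 ± 61.4 and 307 ± 19.5 TPM, so neither stood above the other. Col1a2 had 244 ± 49.5 TPM and Col18a1, which carries the endostatin fragment, 185 TPM (SD 21.02). The 3 collagen VI chains Col6a3, Col6a1 and Col6a2 had 174 ± 7.33, 170 ± 9.16 and 139 ± 17.5 TPM, and the collagen V chains Col5a3, Col5a1 and Col5a2 had 140 ± 12.4, 119 ± 15.8 and 91.9 ± 14.8 TPM. A wide step followed, down to the FACITs Col12a1 at 20.0 ± 6.92, Col14a1 at 18.2 ± 6.00 and Col16a1 at 15.5 ± 11.6 TPM, whose spreads overlap. The other chains each stood at or below 3.92 TPM in WT.

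**Figure D1:**
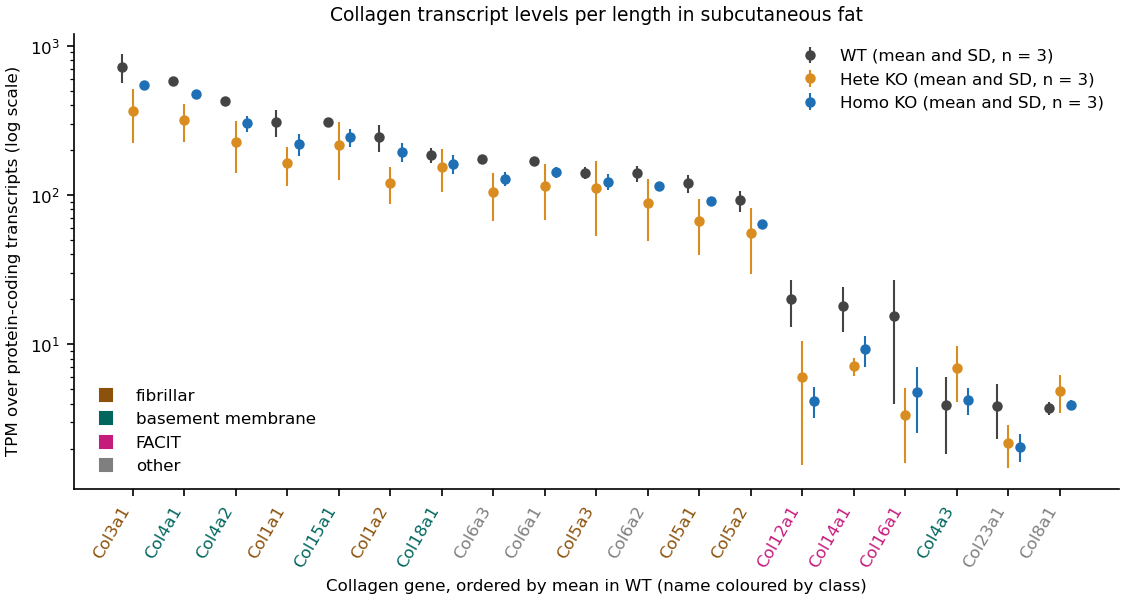
Mean TPM over protein-coding transcripts (log scale, bars are SD, n = 3) of the 19 collagen genes with the highest mean in WT, for WT, Hete KO and Homo KO. The 13 chains on the left stand at or above 91.9 TPM in WT, and the FACITs Col12a1, Col14a1 and Col16a1 show the widest gap between WT and the KO groups.

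Of collagen TPM, Col3a1 took 19.5% (WT), 17.1% (Hete KO) and 19.1% (Homo KO), and Col4a1 took 15.7, 14.7 and 16.6%. Col12a1 took 0.541% (WT), 0.281% (Hete KO) and 0.148% (Homo KO). Collagen genes together took 1.45, 1.89 and 1.56% of the estimated counts in WT 1, 2 and 3. The shares were 1.20, 0.562 and 0.825% for the Hete KO libraries and 1.28, 1.12 and 1.14% for the Homo KO libraries. All 6 KO libraries thus lay below all 3 WT libraries, and the lowest share was that of Hete KO 2, the library with the most muscle RNA. WT 1 and WT 2, the other libraries with abundant muscle RNA, had the lowest and the highest share of the WT libraries. The part of muscle RNA in these shares was not tested.

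By class, the summed CPM of the fibrillar genes was 6723 ± 1129 (WT, SD, n = 3), 3692 ± 1278 (Hete KO) and 5026 ± 82.2 (Homo KO). For the basement membrane genes it was 6602 ± 442, 3746 ± 1195 and 4945 ± 187 CPM, and for the other collagens 2206 ± 102, 1382 ± 485 and 1769 ± 44.8 CPM. For the FACITs it was 306 ± 44.6, 103 ± 43.8 and 98.8 ± 20.4 CPM. In each of the 4 classes the 6 KO libraries lay below the 3 WT libraries. Homo KO libraries were close to one another, with fibrillar sums between 4947 and 5111 CPM, while Hete KO libraries ran from 2584 to 5090 CPM and so reached the Homo KO range. Since these sums are scores over chosen members, no test was made of them.

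**Figure D2:**
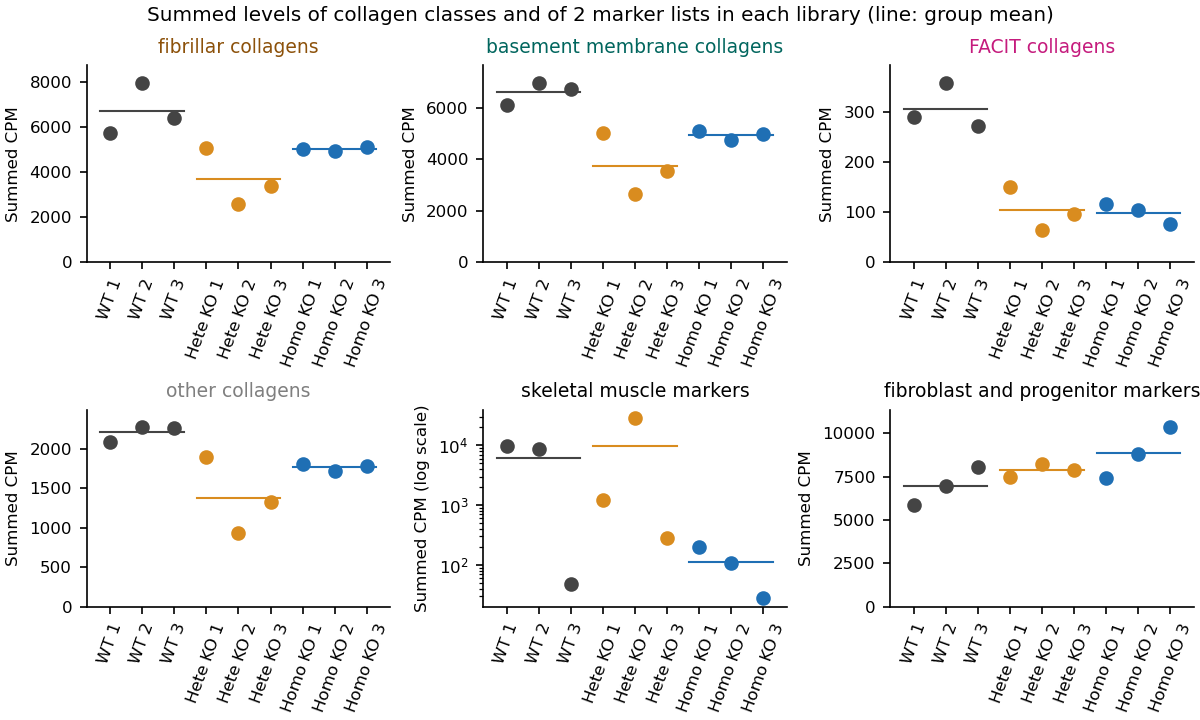
Summed CPM of the 4 collagen classes in each library, with the group mean as a line, beside the summed CPM of the skeletal muscle markers (log scale) and of the fibroblast and progenitor markers. Each class is lower in every KO library than in every WT library, and Hete KO 2 is lowest in all 4. The fibroblast and progenitor sum, made up mostly of Gsn, is not lower in the KO libraries. Gene by gene, 8 of the 10 markers in that sum lay below 0 in both KO groups against WT and 2 above.

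Comparisons were made with edgeR's quasi-likelihood test over 17968 genes, of which 39 were collagens. They share libraries, so their results are not independent. In Homo KO against WT, 0 collagen genes passed at an adjusted p under 0.05 by edgeR, where 0% of all tested genes passed higher and 0% lower. At an unadjusted p under 0.05, 1 collagen gene was higher and 7 were lower, against 7.75 and 8.68% of all tested genes. Groups did not overlap for 1 collagen gene with Homo KO higher and for 18 with Homo KO lower, against 10.9 and 11.2% of all tested genes. DESeq2 called 4 collagens lower and 0 higher, where it called 1.90% of the genes it tested lower and 1.42% higher.

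In Hete KO against WT, 0 collagen genes passed by edgeR, where 0.15% of all tested genes passed higher and 0.267% lower. At an unadjusted p under 0.05, 0 were higher and 16 lower, against 9.71 and 12.1% of all tested genes. Groups did not overlap for 14 collagens with Hete KO lower and for 0 with Hete KO higher, against 12.1 and 12.6% of all tested genes. DESeq2 called 14 collagens lower and 0 higher, against 6.28 and 3.77% of its genes. The edgeR count changed with 2 libraries, to 15 lower without Hete KO 1 and to 4 lower without WT 1.

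Between Homo KO and Hete KO, 0 collagens passed by edgeR, against 0% of all tested genes in either direction. At an unadjusted p under 0.05, 4 were higher in Homo KO and 0 lower, against 2.25 and 3.19% of all tested genes. Groups did not overlap for those 4 with Homo KO higher and for 0 with Homo KO lower, against 5.73 and 5.64% of all tested genes. DESeq2 called 0 collagens, against 0% higher and 0.00789% lower of its genes. The 4 genes were Col4a5 (log2 fold change 0.78), Col1a2 (0.59), Col3a1 (0.54) and Col4a1 (0.50), each with an edgeR adjusted p of 0.899.

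With both KO groups set against WT, 3 collagen genes fell and 0 rose, all 3 of them FACITs, where edgeR called 1.52% of all tested genes lower and 0.824% higher. At an unadjusted p under 0.05, 16 collagens were lower and 0 higher, against 12.3 and 10.2% of all tested genes. Groups did not overlap for 12 with KO lower and for 0 with KO higher, against 6.06 and 6.37% of all tested genes. DESeq2 called 13 collagens lower and 0 higher, against 5.62 and 3.98% of its genes. The edgeR count was 0 without WT 2, WT 3, Hete KO 3, Homo KO 1, Homo KO 2 or Homo KO 3, and 14 without Hete KO 1.

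The median log2 fold change over the 39 tested collagens was -0.39 in Homo KO against WT, -0.57 in Hete KO against WT, 0.19 in Homo KO against Hete KO and -0.49 in both KO groups against WT. Over all tested genes these medians were -0.006, 0.015, 0.003 and -0.005. Of the 39, 30 lay below 0 in Homo KO against WT, 30 in Hete KO against WT and 31 in both KO groups against WT, where 50.7, 48.6 and 50.5% of all tested genes did. Each of the 13 collagens with a mean of at least 100 CPM lay below 0 in these 3 comparisons, with values from -0.52 to -0.14 in Homo KO and from -1.01 to -0.36 in Hete KO. Of the 1936 tested genes at that abundance, 39.4 and 41.0% lay below 0 in these 2 comparisons. Of the 9 collagens with a mean of 10 to under 100 CPM, 5 lay below 0 in Homo KO against WT and 7 in Hete KO against WT, where 49.1% of all tested genes at that abundance did in each. Of the 17 collagens with a mean under 10 CPM, 12 and 10 lay below 0, against 54.9 and 49.8% of all tested genes at that abundance. Hete KO 2 had the lowest CPM of the 9 libraries for each of the 13 abundant chains and for 16 of all 39 collagens.

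**Figure D3:**
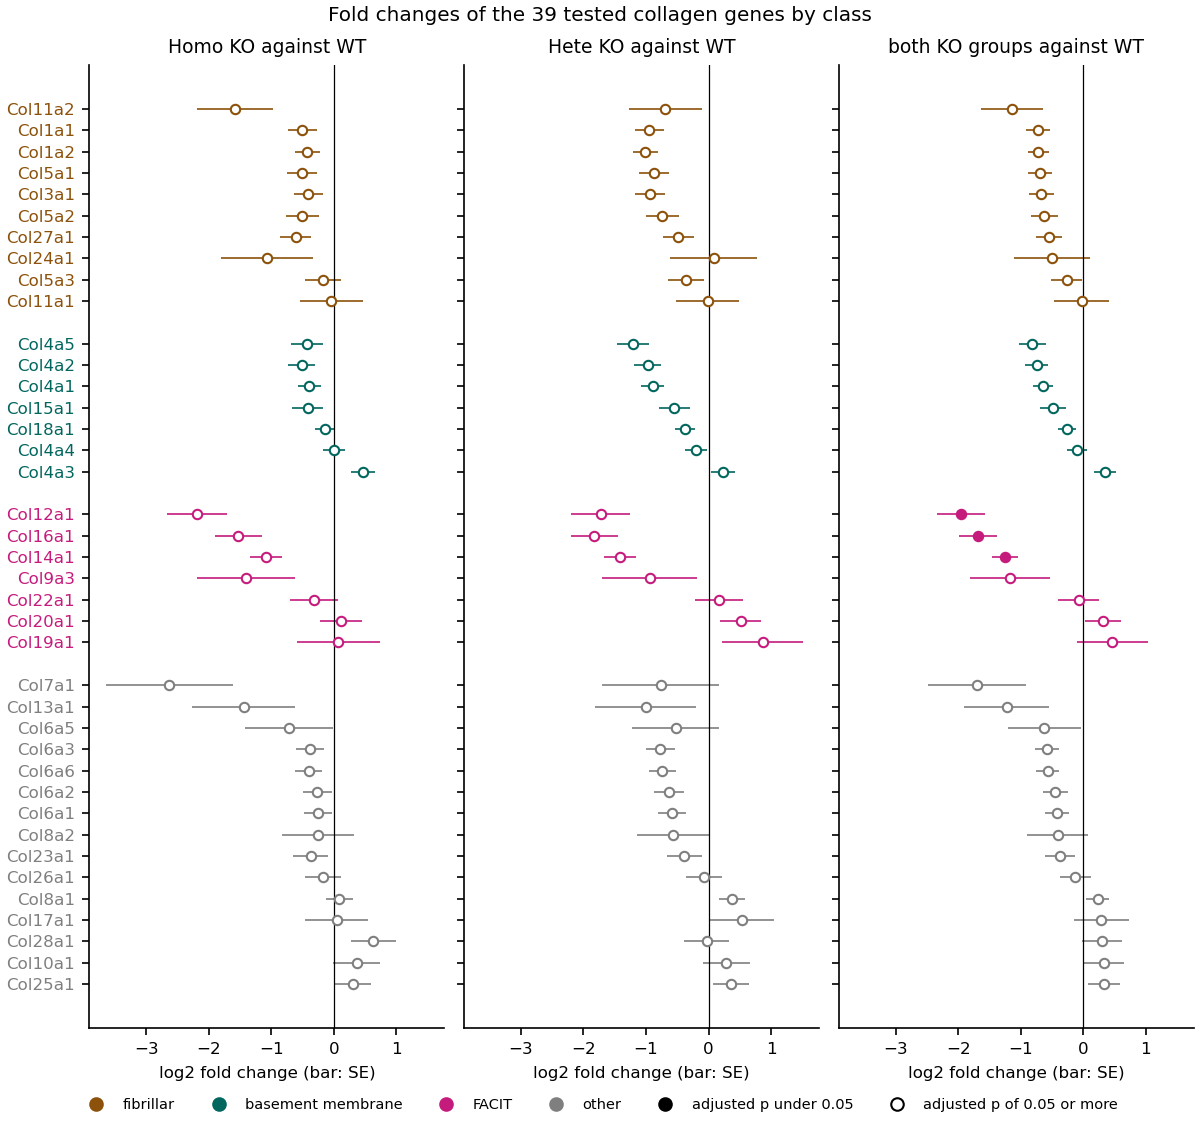
Log2 fold changes (points) with their SE (bars) of the 39 tested collagen genes, ordered by class, for Homo KO against WT, Hete KO against WT and both KO groups against WT. Filled points passed an adjusted p of 0.05, which only Col12a1, Col16a1 and Col14a1 did, in the panel of both KO groups.

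FACIT collagens have interrupted triple helices and bind to the surface of collagen I fibrils, where they are known to affect fibril spacing and tissue stiffness. Of the 7 tested FACITs, 3 fell in both KO groups against WT. The class median was -1.17, against -0.65 for the fibrillar, -0.48 for the basement membrane and -0.41 for the other collagens. That FACIT median is the value of Col9a3, a scarce gene with a mean of 10.9 counts per library. Over the 24 alternatives the FACIT median ran from -1.35 to -0.48. Col12a1 (chromosome 9, 79598991 to 79718831, mm10, ENSMUSG00000032332.17) encodes the chain of collagen XII, found in tissues under load. It had 189, 180 and 107 CPM (WT), 83.5, 16.8 and 43.9 (Hete KO) and 36.01, 41.9 and 26.7 (Homo KO). Every KO library lay below every WT library, and the nearest were Hete KO 1 and WT 3. The log2 fold change came to -1.95 (SE 0.382, edgeR adjusted p = 0.0411) in both KO groups against WT. It was -2.19 (adjusted p = 0.161) in Homo KO and -1.72 (adjusted p = 0.0930) in Hete KO. Neither group alone passed by edgeR, while DESeq2 called Col12a1 lower in each.

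Col14a1 (chromosome 15, 55307750 to 55520803, ENSMUSG00000022371.16) encodes the chain of collagen XIV, which limits the lateral growth of fibrils. Its levels were 41.8, 86.7 and 85.3 CPM (WT), 29.3, 26.1 and 24.6 (Hete KO) and 40.9, 32.7 and 27.3 (Homo KO). Every KO library lay below every WT library, but WT 1 and Homo KO 1 were almost level. Its log2 fold change came to -1.25 (SE 0.214, edgeR adjusted p = 0.0387) in both KO groups against WT, -1.09 (adjusted p = 0.162) in Homo KO and -1.42 (adjusted p = 0.0540) in Hete KO. Without WT 2 and WT 3, the libraries with liver RNA, it was -0.48 (adjusted p = 0.509), with WT 1 as the lone WT library.

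Col16a1 (chromosome 4, 130047840 to 130099283, ENSMUSG00000040690.15) encodes the chain of collagen XVI, a minor component of fibrils and microfibrils. It had 49.1, 82.9 and 72.4 CPM (WT), 30.0, 10.2 and 17.5 (Hete KO) and 32.7, 20.7 and 17.6 (Homo KO). Again all 6 KO libraries lay below the 3 WT libraries. The log2 fold change came to -1.68 (SE 0.306, edgeR adjusted p = 0.0395) in both KO groups against WT, -1.53 (adjusted p = 0.165) in Homo KO and -1.83 (adjusted p = 0.0606) in Hete KO. Between 21.9 and 44.5% of its counts in a library were assigned to protein-coding transcripts. On protein-coding transcripts alone the log2 fold change came to -1.87 (adjusted p = 0.0648), and 0 collagens passed.

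The calls of these 3 genes did not hold under every setting. Each of the 3 kept a negative fold change in all 24 alternatives to the comparison of both KO groups with WT, from -2.27 to -1.18 for Col12a1, -1.51 to -0.48 for Col14a1 and -1.90 to -1.20 for Col16a1. Col12a1 passed in 10 of the 24, Col14a1 in 12 and Col16a1 in 11. Without WT 1, Col14a1 and Col16a1 passed with Col1a1 and Col1a2, while Col12a1 had an adjusted p of 0.0589. Leaving out the 3 libraries with abundant muscle RNA kept WT 3 as the lone WT library. Col12a1 then had a log2 fold change of -1.18, a smaller difference by more than 1.5 times. The other 4 tested FACITs were scarce, at or below 6.61 CPM in any library. Of these, Col9a3, a cartilage chain, had a log2 fold change of -1.17 (adjusted p = 0.305), Col22a1 -0.08, Col20a1 0.31 and Col19a1 0.47. Col19a1 and Col20a1 were 2 of the 3 collagens with the smallest p above 0 in Hete KO against WT, at 0.86 and 0.51 (adjusted p = 0.476 and 0.405). Without the muscle-rich libraries Col19a1 turned to -0.19.

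**Figure D4:**
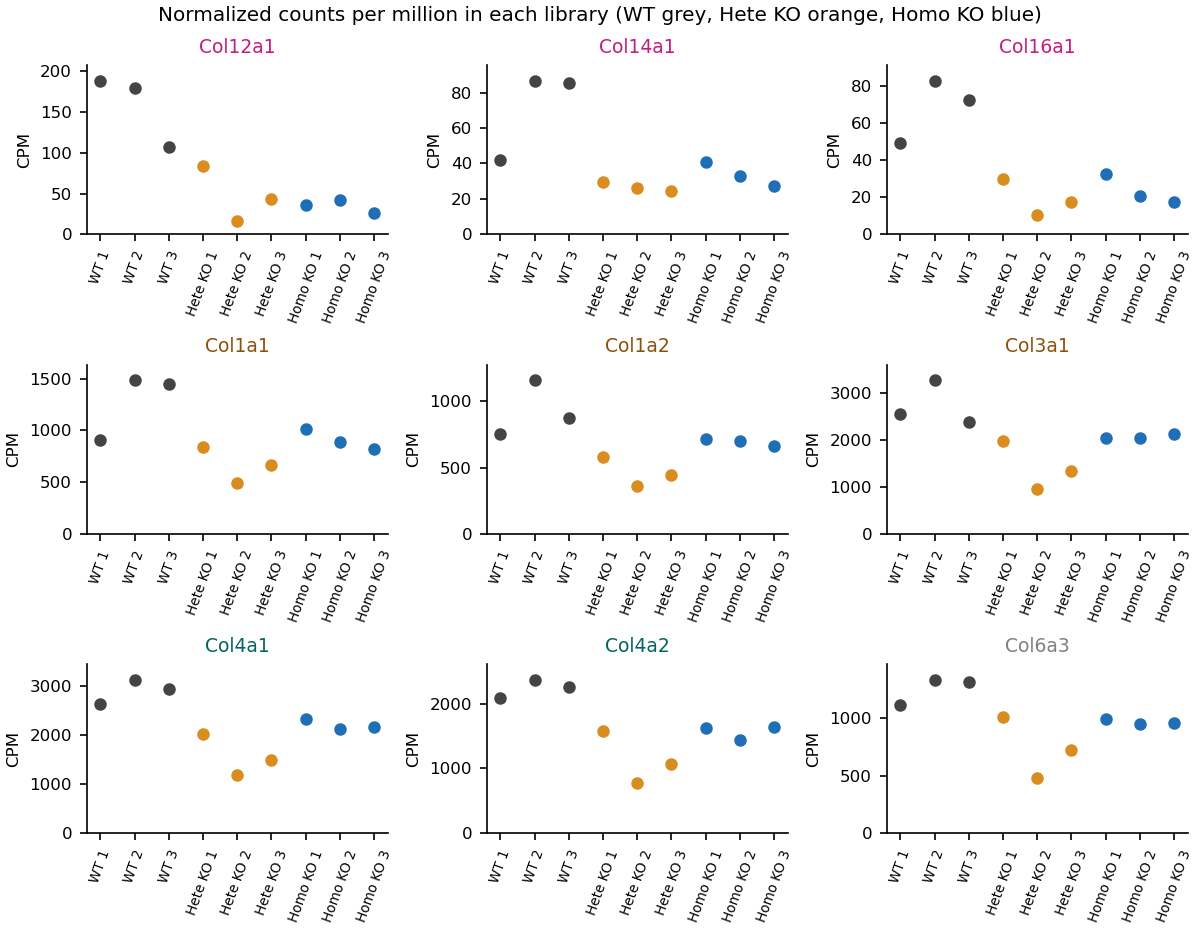
Normalized CPM in each of the 9 libraries for 3 FACITs (upper row), 3 fibrillar chains (middle row) and 2 collagen IV chains with Col6a3 (lower row), on axes that start at 0. The 6 KO points lie below the 3 WT points in every panel except that of Col1a1, where WT 1 at 911 CPM lies below Homo KO 1 at 1011 CPM.

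Fibrillar collagens give fat stroma its tensile strength. All 10 tested fibrillar genes lay below 0 in both KO groups against WT, and 0 of them passed by edgeR. DESeq2 called Col1a1, Col1a2, Col3a1, Col5a1 and Col5a2 lower there and in Hete KO against WT. Col1a1 (chromosome 11, 94936224 to 94953042) had 911, 1486 and 1450 CPM (WT), 838, 492 and 668 (Hete KO) and 1011, 888 and 819 (Homo KO). WT 1 lay within the KO range, and the log2 fold change in both KO groups against WT was -0.72 (SE 0.194, edgeR adjusted p = 0.0732). Its partner Col1a2 (chromosome 6, 4504814 to 4541544) had 751, 1161 and 876 CPM (WT), 581, 361 and 442 (Hete KO) and 716, 703 and 662 (Homo KO). Here the 3 groups did not overlap, with Homo KO between the other two. The log2 fold change of Col1a2 was -1.01 (SE 0.201, adjusted p = 0.0597) in Hete KO and -0.42 (adjusted p = 0.328) in Homo KO against WT.

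Col3a1 (chromosome 1, 45311538 to 45349706), the collagen III chain of loose stroma and vessel walls, showed the same order. It had 2557, 3281 and 2390 CPM (WT), 1982, 960 and 1342 (Hete KO) and 2038, 2043 and 2132 (Homo KO), with no overlap between groups. Its log2 fold change came to -0.94 (SE 0.238, edgeR adjusted p = 0.0783) in Hete KO and -0.41 (adjusted p = 0.420) in Homo KO against WT. The collagen V chains, which set the diameter of fibrils, were Col5a1 at 705 ± 108 CPM (WT), 386 ± 144 (Hete KO) and 495 ± 30.5 (Homo KO), and Col5a2 at 434 ± 75.2, 260 ± 114 and 306 ± 11.7 CPM. Their log2 fold changes in both KO groups against WT were -0.69 (adjusted p = 0.0860) and -0.62 (adjusted p = 0.141). Col5a3, another collagen V chain, was at -0.27 (adjusted p = 0.548), and Hete KO 1 at 744 CPM was its highest library.

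Scarcer fibrillar genes were Col27a1 between 10.3 and 26.7 CPM, Col11a1 between 0.67 and 3.06, Col11a2 between 0.33 and 1.80 and Col24a1 between 0.19 and 1.39 CPM. Col11a2 had a log2 fold change of -1.13 (SE 0.495, edgeR adjusted p = 0.212) in both KO groups against WT. In Homo KO against Hete KO, Col7a1, an anchoring fibril chain, Col24a1 and Col11a2 had the smallest p below 0. Their values were -1.86, -1.16 and -0.89 (adjusted p = 0.914, 0.936 and 0.941), and each turned positive when muscle and liver transcripts were covariates. Col2a1, the cartilage collagen, had at most 0.05 CPM in any library and was not tested.

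Of the 7 tested basement membrane genes, 0 passed by edgeR in any comparison. DESeq2 called Col4a1, Col4a2 and Col4a5 lower in Hete KO against WT and in both KO groups against WT. In both KO groups against WT 6 of the 7 lay below 0, and Col4a3 lay above it. Col4a1 (chromosome 8, 11198423 to 11312826) had 2635, 3130 and 2932 CPM (WT), 2025, 1176 and 1488 (Hete KO) and 2326, 2122 and 2169 (Homo KO). Col4a2 (chromosome 8, 11312805 to 11449287) had 2091, 2370 and 2263 CPM (WT), 1577, 768 and 1074 (Hete KO) and 1626, 1438 and 1637 (Homo KO). For both genes the KO libraries lay below the WT libraries without overlap. In Hete KO against WT the log2 fold changes were -0.89 (SE 0.187, edgeR adjusted p = 0.0606) for Col4a1 and -0.98 (SE 0.224, adjusted p = 0.0685) for Col4a2. For Homo KO against WT they were -0.39 (adjusted p = 0.326) and -0.52 (adjusted p = 0.289).

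Col4a1 and Col4a2 encode chains of 1 trimer and lie head to head, with annotated genes that overlap by 22 bases at their starts. Their shared promoter region is shown because both genes had lower CPM in each KO library than in each WT library. The RefSeq windows (GRCm38.p6), 250 bases before to 50 after each start, are given on the strand of each gene, with GC boxes (GGGCGG) and CCAAT boxes (CCAAT) of either strand in capitals.
Col4a1, chr8:11312777-11313076, minus strand: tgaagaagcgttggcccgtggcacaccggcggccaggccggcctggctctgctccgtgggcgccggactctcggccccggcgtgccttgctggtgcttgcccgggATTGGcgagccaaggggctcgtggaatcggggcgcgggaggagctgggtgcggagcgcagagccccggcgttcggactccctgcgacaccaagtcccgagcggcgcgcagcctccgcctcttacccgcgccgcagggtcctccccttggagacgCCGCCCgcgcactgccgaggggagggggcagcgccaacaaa
Col4a2, chr8:11312555-11312854, plus strand: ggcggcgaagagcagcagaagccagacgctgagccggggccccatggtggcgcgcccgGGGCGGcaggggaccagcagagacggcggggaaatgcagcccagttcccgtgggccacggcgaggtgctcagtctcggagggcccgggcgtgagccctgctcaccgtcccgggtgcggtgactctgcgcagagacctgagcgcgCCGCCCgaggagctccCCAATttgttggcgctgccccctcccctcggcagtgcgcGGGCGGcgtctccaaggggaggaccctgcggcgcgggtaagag
Neither window holds TATAAA. Among the 38 promoters of the 35 collagen genes in the table, 60.5% held a GC box, against 35.7% of all 32851 promoters. A CCAAT box was found in 34.2 and 37.4%, and TATAAA, also on either strand, in 13.2 and 13.6%. These are matches of letters and not measured binding sites.

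Of the other basement membrane chains, Col15a1 had 959, 967 and 1063 CPM (WT), 980, 419 and 649 (Hete KO) and 751, 765 and 725 (Homo KO). Hete KO 1 lay within the WT range, and the log2 fold change came to -0.42 (SE 0.246, edgeR adjusted p = 0.425) in Homo KO and -0.55 (adjusted p = 0.232) in Hete KO against WT. Col18a1 had 384, 455 and 435 CPM (WT), 409, 256 and 315 (Hete KO) and 368, 375 and 409 (Homo KO), with groups that overlap and a log2 fold change of -0.26 (adjusted p = 0.298) in both KO groups against WT. Its gene overlaps Slc19a1 on the opposite strand by 8825 bases, and no source used here says whether counting used strand. Col4a5, an X-linked collagen IV chain, had 8.98, 14.0 and 9.52 CPM (WT), 4.75, 6.11 and 3.21 (Hete KO) and 7.70, 8.41 and 8.05 (Homo KO). The 3 groups did not overlap, and the log2 fold change came to -1.21 (SE 0.259, adjusted p = 0.0619) for Hete KO against WT and 0.78 (SE 0.259, adjusted p = 0.899) for Homo KO against Hete KO.

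Col4a3 differed in direction from Col4a1 and Col4a2. It had 9.73, 8.10 and 9.98 CPM (WT), 9.75, 12.2 and 10.7 (Hete KO) and 10.4, 11.7 and 16.4 (Homo KO). It was the collagen with the smallest p above 0 in Homo KO against WT, at 0.47 (SE 0.198, edgeR adjusted p = 0.285), and was at 0.35 (adjusted p = 0.266) in both KO groups. Its gene is covered by C430014B12Rik on the opposite strand over 30132 bases. Col4a4, its head-to-head neighbour, had between 15.2 and 25.3 CPM and a log2 fold change of -0.10. Col4a6 had at most 0.91 CPM in any library and was not tested.

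Collagen VI, a beaded filament known for surrounding adipocytes, was measured through Col6a1, Col6a2 and Col6a3. Col6a3 (chromosome 1, 90765923 to 90843971), whose C-terminal fragment is known as endotrophin, had 1115, 1334 and 1311 CPM (WT), 1007, 477 and 723 (Hete KO) and 988, 945 and 960 (Homo KO). The KO libraries lay below the WT libraries, with a log2 fold change of -0.57 (SE 0.191, edgeR adjusted p = 0.120) in both KO groups. Col6a1 and Col6a2 had 478 ± 18.6 and 396 ± 20.3 CPM (WT), 320 ± 120 and 256 ± 105 (Hete KO) and 400 ± 12.0 and 330 ± 11.4 (Homo KO). For both genes every KO library lay below every WT library. Their log2 fold changes were -0.42 (adjusted p = 0.222) and -0.45 (adjusted p = 0.228) in both KO groups against WT. Col6a6, a related chain, had between 11.7 and 28.1 CPM and a value of -0.57 (adjusted p = 0.108). DESeq2 called Col6a3 and Col6a6 lower in both KO groups against WT, and these and Col6a2 lower in Hete KO against WT. Col6a5 had at most 1.59 CPM, and Col6a4 at most 0.43 CPM and was not tested.

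Of the other 10 collagens in this class, 0 passed by edgeR in any comparison, and DESeq2 called Col7a1 lower in Homo KO against WT. The transmembrane collagens Col13a1, Col17a1, Col23a1 and Col25a1 had log2 fold changes of -1.22, 0.29, -0.38 and 0.33 in both KO groups against WT, at levels up to 12.4 CPM. Col7a1 had 5.05, 6.21 and 0.75 CPM (WT), 0.82, 5.73 and 0.49 (Hete KO) and 1.09, 0.43 and 0.41 (Homo KO). It was high in WT 1, WT 2 and Hete KO 2, which are the libraries with abundant muscle RNA, and the part of muscle RNA in its fold change of -2.63 in Homo KO against WT (SE 1.02, edgeR adjusted p = 0.254) was not tested. Col8a1, a network-forming chain of vessel walls, had between 11.9 and 23.0 CPM and a log2 fold change of 0.23 (adjusted p = 0.474). Col28a1 had 7.77, 10.7 and 9.95 CPM (WT), 10.1, 6.15 and 11.7 (Hete KO) and 23.4, 12.0 and 8.54 (Homo KO), and its value of 0.63 in Homo KO against WT (adjusted p = 0.414) came with 1 library, Homo KO 1, far above the rest. Col25a1 was the next of the genes above 0 in that comparison, at 0.30 (adjusted p = 0.624), and turned to -0.06 without Homo KO 1. Col10a1, at 1.72 to 5.62 CPM, overlaps Nt5dc1 on the opposite strand by 7105 bases of the annotated genes, introns included. Whether reads of Nt5dc1 entered the counts of Col10a1 was not tested.

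Of the 44 genes, 5 were too scarce to be tested, Col2a1, Col4a6, Col6a4, Col9a1 and Col9a2. A count of 3, the limit that a count of 0 allows, was worth between 0.107 and 0.146 CPM per library. Col9a1 had 0 counts in 6 libraries and at most 0.30 CPM, and Col9a2 had at most 0.25 CPM. The 7 cartilage and tendon markers summed to between 8.26 and 14.0 CPM.

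Ratios between chains that share a trimer were taken in coding TPM. Col1a1 to Col1a2 was 1.12, 1.18 and 1.503 (WT), 1.35, 1.27 and 1.43 (Hete KO) and 1.32, 0.95 and 1.15 (Homo KO), so the groups overlapped. In CPM that ratio was 1.26 in Homo KO 2, and the groups overlapped as well. The ratio of Col5a1 to Col5a2 ran from 1.13 to 1.62 and that of Col6a1 to Col6a2 from 1.13 to 1.37 over the 9 libraries, again with overlap. The value of 1.62 was that of Homo KO 2, where the ratio of Col5a1 to Col5a2 in CPM was 1.59. Col4a1 to Col4a2 was 1.28, 1.43 and 1.36 (WT), 1.32, 1.63 and 1.36 (Hete KO) and 1.51, 1.72 and 1.49 (Homo KO), so that all 3 Homo KO libraries lay above the WT libraries. In CPM the same ratio was 1.26, 1.32 and 1.30 in WT and 1.43, 1.48 and 1.32 in Homo KO, so Homo KO 3 and WT 2 were almost level. Homo KO 2 stood apart in the transcripts of Col1a2 and Col4a1. A coding transcript of Col1a2 of 850 bases had 51.5 TPM there, against 0.57 to 8.47 TPM in the other 8 libraries. Of the counts of Col4a1 in Homo KO 2, 34.7% were assigned to a nonsense-mediated decay transcript of 6487 bases, against 0 to 2.35% in the other 8 libraries. The main transcript of 6615 bases took 40.1%, against 82.5 to 86.1%.

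The gene's summed count does not depend on how reads were split between these transcripts, but its TPM over all transcripts does. A 618-base transcript took 9.61 to 14.5% of the counts of Col4a1 and had 958 TPM in WT 1, against 522 TPM for the 6615-base transcript. Levels were therefore compared over protein-coding transcripts, a sum that also depends on the split. In Homo KO 2 protein-coding transcripts held 47.1% of the counts of Col4a1, against 83.3 to 87.0% in the other libraries. Col12a1 was read mainly from its long transcript of 11511 bases, with 87.6 to 97.9% of its counts. Col14a1 was split over several coding transcripts, of which that of 5679 bases took 20.2, 56.1 and 42.3% (WT), 18.2, 35.7 and 22.5% (Hete KO) and 37.5, 55.9 and 44.7% (Homo KO). Of Col25a1, Col26a1 and Col27a1, at most 4.48, 11.1 and 34.0% of the counts in a library were on protein-coding transcripts.

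Genes that process, bind or break down collagen were taken as 7 lists. In both KO groups against WT 6 of these genes fell and 0 rose, against the background rates of 1.52 and 0.824% given above. The calls of these genes, and of the marker genes below, were not checked under the alternative settings used for the collagens. Among propeptide-processing genes, 2 of 7 tested fell. Bmp1, a procollagen C-proteinase, had 62.1, 71.3 and 75.1 CPM (WT), 38.5, 34.1 and 37.1 (Hete KO) and 44.8, 41.4 and 41.9 (Homo KO), with a log2 fold change of -0.81 (SE 0.0877, edgeR adjusted p = 0.0155). Pcolce, which enhances that cleavage, had 88.0, 124 and 84.3 CPM (WT), 46.1, 47.8 and 51.9 (Hete KO) and 65.0, 63.2 and 66.6 (Homo KO), at -0.81 (adjusted p = 0.0265). Both also fell in Hete KO against WT, by 0.92 and 1.02 on the log2 scale (adjusted p = 0.0251 and 0.0332). Adamts2, which removes the N-propeptide, was at -0.50 (adjusted p = 0.0607) in both KO groups. The list's median was -0.81.

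In the other lists 4 genes fell in both KO groups against WT. P3h1, a prolyl 3-hydroxylase, was the only one of 15 modifying enzymes to pass, at -0.76 (SE 0.164, edgeR adjusted p = 0.0477), and that list's median was -0.24. Fn1, which encodes fibronectin, on which fibrils assemble, had 624, 1190 and 773 CPM (WT), 417.5, 338 and 324 (Hete KO) and 512, 416 and 328 (Homo KO), at -1.15 (SE 0.204, adjusted p = 0.0395). Mrc2, an endocytic receptor for cleaved collagen, had 443, 424 and 448 CPM (WT), 198, 51.2 and 110 (Hete KO) and 205, 152 and 131 (Homo KO), at -1.65 (SE 0.316, adjusted p = 0.0408). Timp1, an inhibitor of matrix metalloproteinases, fell by 2.15 on the log2 scale (adjusted p = 0.0454) but had at most 1.80 CPM in any library. The fibril organisation list with Fn1 had a median of -0.26 over 10 genes, the receptors with Mrc2 -0.19 over 10 and the turnover genes with Timp1 -0.48 over 10.

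No member of the folding and export list or of the crosslinking list passed. In the former, Fkbp10, a collagen chaperone, was at -0.68 (edgeR adjusted p = 0.0546), Tmem38b at -0.60 (adjusted p = 0.0569) and Serpinh1, the chaperone HSP47, at -0.65 (adjusted p = 0.112), while the median of its 8 genes was 0.01. All 5 crosslinking genes lay below 0, with a median of -0.35, and Loxl3 was at -0.68 (adjusted p = 0.0777) and Loxl2 at -0.35 (adjusted p = 0.187). The collagen receptors Ddr2 and Itga1 were at -0.44 (adjusted p = 0.0999) and 0.30 (adjusted p = 0.111), in opposite directions. Mmp3 was at -1.03 (adjusted p = 0.0812) and Mmp14 at -0.64 (adjusted p = 0.146). Of the 7 lists, 0 genes passed in Homo KO against WT, and in Hete KO against WT the only ones to pass were Bmp1 and Pcolce.

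**Figure D5:**
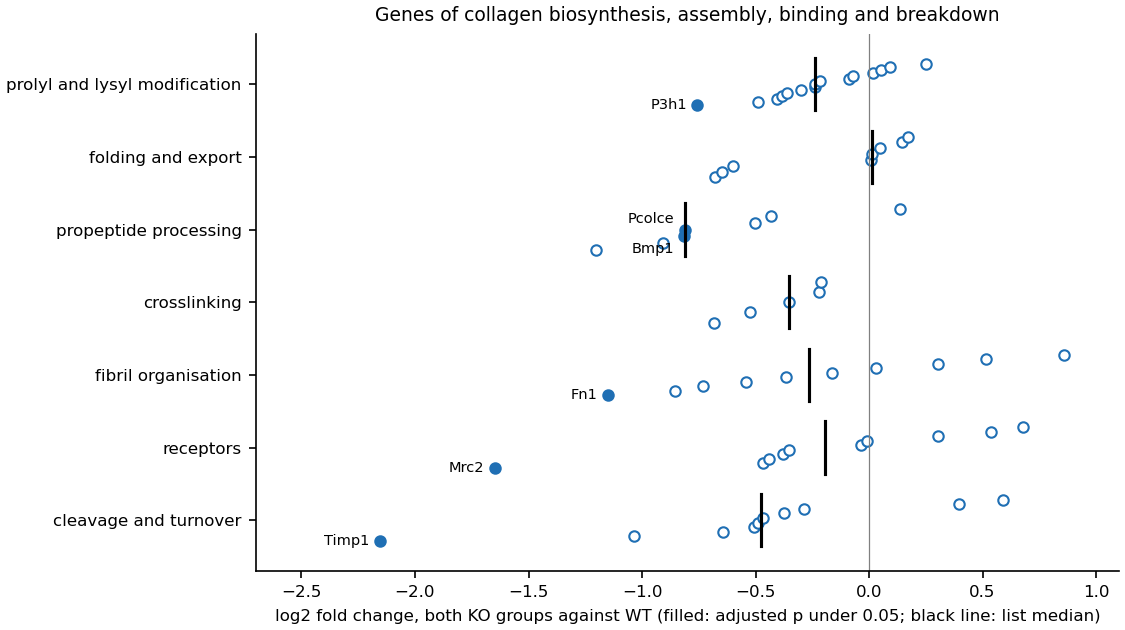
Log2 fold changes in both KO groups against WT of the tested genes of 7 lists of collagen biosynthesis, assembly, binding and breakdown, with the list median as a black line. The 6 filled and named points passed an adjusted p of 0.05, and all lie below 0.

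Markers of the cells that make collagen were read beside these values. The 10 fibroblast and progenitor markers summed to between 5866 and 8049 CPM (WT), 7488 and 8234 CPM (Hete KO) and 7401 and 10348 CPM (Homo KO), a sum made up mostly of Gsn, which adipocytes and muscle also express. Gene by gene, 8 of the 10 lay below 0 in both KO groups against WT and 2 fell. These were Pi16 and Dpp4, markers of interstitial progenitors, with log2 fold changes of -1.88 and -1.20 (edgeR adjusted p = 0.0395 and 0.0265). Pi16 had 20.75, 55.1 and 59.2 CPM (WT), 7.97, 19.01 and 11.8 (Hete KO) and 11.3, 8.65 and 14.8 (Homo KO). The 6 macrophage markers all lay below 0, with sums of 489 to 714 (WT), 268 to 446 (Hete KO) and 376 to 543 CPM (Homo KO), and C1qa fell by 1.02 on the log2 scale (adjusted p = 0.0398). Of the 9 endothelial markers, 5 lay below 0 with a median of -0.04, and the sums were 716 to 959 CPM (WT), 703 to 794 (Hete KO) and 732 to 1057 (Homo KO). Of the 7 adipocyte markers, 5 lay above 0 and 2 below in both KO groups against WT, with a median of 0.34. Among the 8 mural and smooth muscle markers, 5 lay below 0 and 3 above, with a median of -0.28. The part of these cell types in the collagen values was not tested. With muscle and liver transcripts as covariates the median over the collagens was -0.27 in Homo KO against WT. Leaving out the muscle-rich libraries kept WT 3 as the lone WT library. The median over the collagens was then -0.29 in Homo KO and -0.26 in both KO groups against WT.

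Collagens with and without a miR-29 seed match were set side by side. In both KO groups against WT the median log2 fold change came to -0.52 over the 22 collagens with a match and -0.42 over the 17 without, and over other protein-coding genes it was 0.003 with and -0.016 without. For Homo KO against WT the medians were -0.40 and -0.37, and in Hete KO against WT -0.59 and -0.57. Of the 3 FACITs that fell, Col12a1 and Col14a1 held 0 matches and Col16a1 held 1. The microRNAs themselves were not among the values analysed here.

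On chromosome 4, which holds Ago1 at 126435012 to 126468583 (mm10), 5 collagen genes are annotated. Col8a2, which lies 120682 bases from Ago1, had between 0.19 and 0.75 CPM and a log2 fold change of -0.41 (edgeR adjusted p = 0.651) in both KO groups against WT. Col16a1, described above, lies 3579257 bases from Ago1. The others on this chromosome were Col9a2, which was not tested, Col15a1 and Col27a1, 63100021 or more bases away in the case of the last 2.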

How the data were processed

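Per the labels, RNA from frozen subcutaneous fat was extracted with Trizol and sequenced from standard Illumina libraries, and the submitters' processing notes name mm10. No source used here names the quantifier. Per the file headers, the deposited files hold estimated counts (not normalized) and TPM as the authors scaled it, per effective length, for 113193 transcripts.

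Of these, 111362 were matched to GENCODE M21 genes by identifier, 109294 with the same version, and 1831 were left out. Counts were summed per gene and rounded. Tests used R 4.3.3 with edgeR 4.0.16 (quasi-likelihood F-test, TMM, all 9 libraries, 6 residual degrees of freedom, prior count 0.125, two-sided), with Benjamini-Hochberg adjustment over all tested genes and a threshold of 0.05. Levels are normalized CPM. Alternatives used DESeq2 1.42.0 and limma 3.58.1, and Python 3.11.15 did the rest. The script was tested on simulated data. Nothing says how the replicates were separated beyond the sample labels, so p-values measure the spread between these 9 samples.

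Genes named were those past the threshold in any comparison, per comparison the 3 with the smallest p in each direction, and 14 abundant chains. For the pathway lists, genes past the threshold and others among the 3 smallest p were named. The members and lists were chosen with earlier results of these data known. The split by abundance, and other values given for scarce collagens, were chosen after the data were seen, as were the counts on protein-coding transcripts. A planned search of protein sequences was not made.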

Additional observations from a re-analysis of the deposited data

How the results depend on the processing

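DESeq2 called 4 collagen genes in Homo KO against WT, 14 in Hete KO against WT and 13 in both KO groups against WT, where edgeR called 0, 0 and 3. With no filter on low counts edgeR called 4 in Hete KO and 6 in both KO groups, and fitted on the compared groups alone it called 1 in Homo KO (Col12a1), a setting that could not be applied to both KO groups. In both KO groups the count was 0 with limma on log2(TPM + 0.5) and log2(TPM + 0.1), with a length offset, on protein-coding transcripts only, with muscle and liver covariates and without the liver-rich libraries, and 1 without the muscle-rich libraries (Col14a1). With the muscle-rich libraries left out WT 3 was the lone WT library, and with the liver-rich ones left out WT 1 was. Leaving out 1 library gave 0 to 1 in Homo KO, 0 to 15 in Hete KO and 0 to 14 in both KO groups. The cause was not tested. Each gene's group mean was subtracted from its log CPM, and the remaining deviations were correlated between same-numbered samples. For WT and Hete KO these correlations were -0.003 to 0.458. For WT and Homo KO the range was 0.047 to 0.105, and for Hete KO and Homo KO -0.072 to 0. No correlation was computed between samples with different numbers, so these values cannot tell whether the numbers pair the samples. With a replicate block 2 collagens passed in Hete KO (Col4a5 and Col16a1), 3 in both KO groups and 0 in the other comparisons.

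The median over the collagens kept its sign in each alternative. In Homo KO against WT it was -0.2718 and -0.2723 with limma, -0.2651 with the length offset, -0.2862 without the muscle-rich and -0.2578 without the liver-rich libraries, -0.2653 with covariates and -0.4330 to -0.2741 without 1 library. In Hete KO against WT it was -0.6682 and -0.6813 with limma, -0.3741 and -0.4515 without the muscle-rich and the liver-rich libraries, and -0.6358 to -0.4082 without 1 library. In Homo KO against Hete KO it was 0.0628 with limma at 0.5, 0.0942 with the length offset, 0.0297 without the muscle-rich libraries and 0.0398 to 0.3372 without 1 library. In both KO groups against WT it was -0.2618 and -0.3926 without the muscle-rich and the liver-rich libraries, and -0.5681 to -0.4348 without 1 library. Single genes reversed in 6 of 1474 values: Col18a1 in Homo KO against WT without the liver-rich libraries (0.0002), Col25a1 there without Homo KO 1 (-0.0636, and 0.4819 without Homo KO 2), Col19a1 in Hete KO against WT without the muscle-rich libraries (-0.1909), and, in Homo KO against Hete KO with covariates, Col7a1 (1.0576), Col24a1 (0.1388) and Col11a2 (0.3126).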
